A study of Homo sapiens with 3 samples.

Results

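Genes of glucose uptake and glycolysis were examined in RWPE1 cells, namely the glucose transporters SLC2A1 and SLC2A3 and the enzymes HK2, PFKP, PFKFB3, ALDOA, ALDOC, PGK1, ENO2 and LDHA. They were listed by name, and every probe that the platform annotation gives to them was taken. This gave 13 probes for 10 genes, of 24526 probes and 16922 named genes on the array. ALDOA had 4 probes and each of the others had 1. RWPE1 is an immortalised line of benign human prostate epithelium. All groups were made from it by retroviral infection and grown in serum-free keratinocyte medium with pituitary extract and EGF, with no further treatment. The vector group carried the empty vector PMN, another group overexpressed MYC per its label, and the third carried a constitutively active PI3K with the change E545K. The labels do not say whether each line was a clone or a pool. Each group had 1 Illumina array, so nothing was tested and every value describes 3 arrays.

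Glycolysis splits glucose into pyruvate in the cytosol and yields ATP and NADH. Transporters of the SLC2A family bring glucose in and hexokinase traps it as a phosphate. Phosphofructokinase commits it to breakdown, aldolase splits it, and the later enzymes harvest ATP before lactate dehydrogenase turns pyruvate into lactate. Many steps have several isoforms that differ in tissue and regulation. MYC, PI3K-AKT signalling and the hypoxia factor HIF1A are all known to raise genes of this pathway in tumour cells.

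Signals are given in the array's arbitrary units on the vector array's scale, in the order vector, MYC-labelled, PI3K. PI3K signals were rebuilt from their deposited log2 difference from the vector. A probe was above background at a detection p-value under 0.01, which began at a signal of 233.3 on the vector array and 283.7 on the MYC-labelled array once scaled. The second value was also used for the PI3K array. Genes above background numbered 7900, 7391 and 7433 on the 3 arrays. The single MYC probe read 6229, 5229 and 3519.8, so it was not higher on the MYC-labelled array. Where it lies relative to the introduced sequence is not known here. PIK3CA is named for 0 probes. The basal prostate keratins, which this line is known to make, were bright on the vector array: KRT5 read 17323, 5473 and 11735, and KRT14 read 23640.4, 5975 and 13094. Of the 6 basal markers measured, 3 were at least 1.5-fold lower on the MYC-labelled array (10.5% of all genes compared) and 2 on the PI3K array (9.80%; 3 of 6 after centring on the median of all genes). KRT15 was at least 7.86-fold lower on the first and 4.75-fold lower on the second. Others went the opposite way: ITGA6 was 1.99-fold higher on the PI3K array, and LAMB3 was 1.57-fold higher on the MYC-labelled array, short of 1.5-fold after centring. Of 5 general epithelial markers measured on the MYC-labelled array, 2 counted as at least 1.5-fold higher (10.8% of all genes) and 1 lower (10.5%). These were EPCAM (2.05-fold), KRT18 (at least 1.29-fold, from a vector signal not above background) and KRT8 (1.87-fold lower). CDH1 and CLDN7 had log2 differences of -0.45 and 0.33. On the PI3K array 1 of 4, EPCAM, was at least 1.5-fold higher (1.73-fold; 8.54% of all genes). The other 3 lay below 0 (44.9%): KRT8 at -0.10, CDH1 at -0.30 and CLDN7 at -0.11. Of the luminal prostate, fibroblast and endothelial markers 0 were above background on any array. Of 6 leukocyte markers 3 were above background on at least 1 array, CD14, CD79A and ITGB2, with signals up to 307, while PTPRC was not. The part of these marker differences in the results that follow was not tested.

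Of the 10 genes, 9 had the same signal or more on the PI3K array than on the vector array, and SLC2A1 had less. Of all genes compared, 55.1% read higher there. After centring on the median of all genes, PFKFB3 also turned, to -0.08 on the log2 scale. At least 1.5-fold higher on the PI3K array were 5 of the 10, against 8.54% of all genes: ALDOC, SLC2A3, ENO2, PGK1 and HK2. The MYC-labelled array shared the higher ALDOC and HK2 but not the others. In the direct comparison all 10 genes read higher on the PI3K array than on the MYC-labelled array, against 48.9% of all genes. HK2 and SLC2A1 were nearest to level, at -0.05 and -0.11 (log2, MYC-labelled minus PI3K). Since the 3 comparisons rest on the same 3 arrays, their values are set side by side and not counted as separate evidence.

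**Figure D1:**
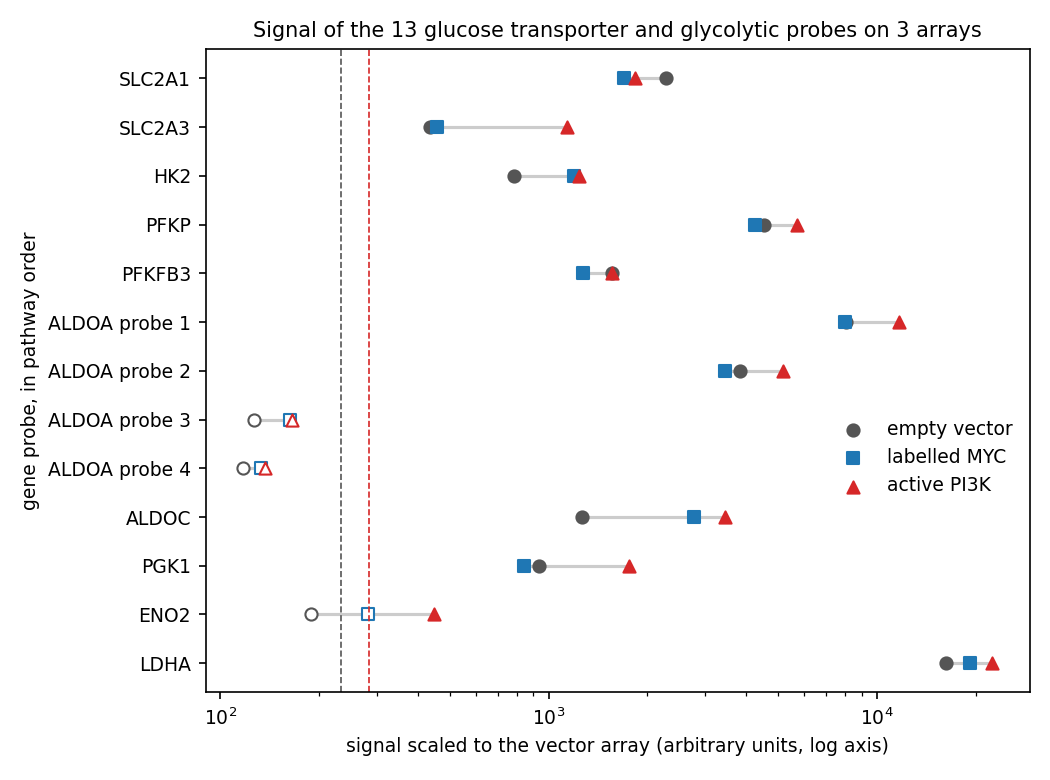
Signal of each of the 13 probes (rows, in pathway order) on the 3 arrays, on a log axis and scaled to the vector array. Open symbols are not above background, and the dashed lines mark the lowest signal above background on the vector array (233.3, grey) and the value used for the MYC-labelled array and the PI3K array (283.7, red). SLC2A3, PGK1 and ENO2 stand highest on the PI3K array, while SLC2A1 is highest on the vector array.

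The transporters differed from each other. SLC2A1 (GLUT1), which supplies basal glucose to most cell types, gave 2281 on the vector array, 1700.2 on the MYC-labelled array and 1833 on the PI3K array. It was highest on the vector array, and its log2 differences from it were -0.42 and -0.32. SLC2A3 (GLUT3), a transporter with high glucose affinity best known from neurons, gave 437, 458 and 1136. Only the PI3K array stood apart, with SLC2A3 2.60-fold above the vector array, and the MYC-labelled array lay 0.07 (log2) above the vector, or -0.03 with each comparison centred on its median. Among the 8136 genes compared between the PI3K and vector arrays, SLC2A3 had the 26th highest difference. SLC2A3 has a near-identical paralog, SLC2A14, which its probe may also read. The probe of SLC2A14 itself was not above background on any array.

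At the hexokinase and phosphofructokinase steps the differences were smaller. HK2, the inducible hexokinase that binds mitochondria, gave 786, 1199 and 1239. It was 1.53-fold higher on the MYC-labelled array and 1.58-fold higher on the PI3K array, just past the 1.5-fold mark (0.585 on the log2 scale), and both fell short of it after centring (0.514 and 0.577). PFKP, the platelet-type phosphofructokinase, gave 4545, 4239.8 and 5699, with log2 differences of -0.10 and 0.33 from the vector. PFKFB3 makes fructose 2,6-bisphosphate, the activator of phosphofructokinase. It gave 1564, 1272 and 1564, so the vector and PI3K arrays had equal signals and the MYC-labelled array was lower by a log2 difference of -0.30.

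The aldolases split glucose-derived fructose bisphosphate into a pair of three-carbon sugars. ALDOC, the isoform known from brain, gave 1265, 2769 and 3453. It was 2.19-fold higher on the MYC-labelled array and 2.73-fold higher on the PI3K array, and it had the 20th highest difference of 8136 genes in the second of these comparisons and the 125th of 8147 in the first. ALDOA, the main isoform of muscle and most dividing cells, gave 8045, 8009.6 and 11662 by its brightest probe, with log2 differences of -0.01 and 0.54. Its second detected probe gave 3833, 3437 and 5175, with log2 differences of -0.16 and 0.43. Both detected ALDOA probes were therefore higher on the PI3K array only. The other 2 ALDOA probes were not above background on any array and stayed below a signal of 165.5.

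Of the ATP-yielding steps, PGK1, which makes the first ATP of the pathway, gave 938, 840.1 and 1763. It was 1.88-fold higher on the PI3K array and had a log2 difference of -0.16 on the MYC-labelled array. PGK1 has processed copies in the genome that a probe may not separate. ENO2, the enolase isoform known as a neuronal and neuroendocrine marker, gave 189, 282 and 449 and was above background on the PI3K array only. It was at least 1.92-fold higher there than on the vector array, and no fold is given between the other arrays. LDHA, which turns pyruvate into lactate, gave 16206.5, 19195 and 22454. Its log2 differences were 0.24 and 0.47, the smallest value being that of the vector array.

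Spread between cultures was not measured. The available error is technical, from 719 genes with at least 2 probes above background on all arrays. For these the SD of a single probe's log2 difference was 0.20 for the MYC-labelled array against the vector, 0.21 for the PI3K array against the vector and 0.18 for the MYC-labelled array against the PI3K array. By this measure the differences of PFKP, PGK1, ALDOA and SLC2A3 on the MYC-labelled array lay within 1 SD of 0, as did that of PFKFB3 on the PI3K array.

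**Figure D2:**
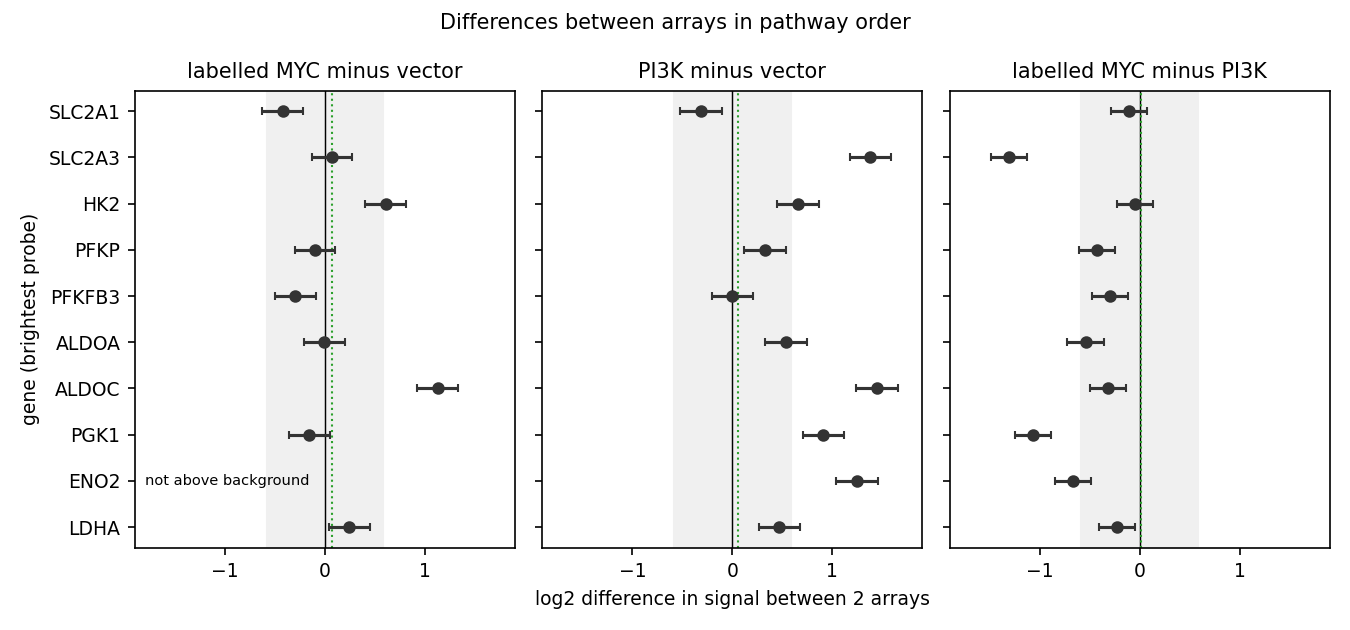
Log2 difference in signal between 2 arrays for each gene (rows, in pathway order; brightest probe) in the 3 comparisons. Bars are the technical SD of a single probe (0.20, 0.21 and 0.18), the grey band spans differences under 1.5-fold, and the dotted line is the median of all genes compared. ALDOC lies past the band in both comparisons with the vector, and all 10 genes lie below 0 in the third panel.

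On the MYC-labelled array against the vector, 2 of the 9 genes measured were at least 1.5-fold higher, ALDOC and HK2, against 10.8% of all 8147 genes compared. At least 2-fold higher was ALDOC alone, against 2.31% of all genes. None (0 of 9) was at least 1.5-fold lower, against 10.5%, and no test was possible with 1 array a group. Their median log2 difference was -0.01 and that of all genes 0.07. The count of 2 fell to 1 with centring or with 50 added to each signal before the log, when HK2 dropped out.

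On the PI3K array against the vector, 5 of 10 genes were at least 1.5-fold higher, against 8.54% of all 8136 genes, and 3 of 10 at least 2-fold higher (ALDOC, SLC2A3 and ENO2), against 1.20% of all genes. After centring the first count is 4, when HK2 dropped out. With ENO2 at its bound of 1.92-fold the second count is 2. The median of the 10 was 0.60 on the log2 scale and that of all genes 0.05. The genes were named with earlier results of these arrays known, so the counts describe them and do not test them.

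Between the MYC-labelled array and the PI3K array, all 10 genes were lower on the first, against 48.9% of the 7804 genes compared. SLC2A3 was 2.48-fold lower and PGK1 lower by a log2 difference of -1.07, and ENO2 was at least 1.58-fold lower. These 3 of 10 passed 1.5-fold, against 8.14% of all genes, and 2 of 10 passed 2-fold, against 2.63%. The smallest gaps were those of HK2 (-0.05) and SLC2A1 (-0.11), which lay within the technical SD. The median of the 10 was -0.37 and that of all genes 0.01.

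Upstream sequences are printed for the 4 genes with 1 annotated start each and for LDHA, with the letters known from hypoxia and MYC binding marked. The LDHA window was chosen because it holds matches. RefSeq promoter windows (GRCh38.p14) matched 9 of the 10 genes with 17 annotated starts, and SLC2A3 is not printed. The 250 bases before each start were searched on both strands for CACGTG, the E-box known to be bound by MYC. They were also searched for ACGTG, a form of the core of the hypoxia response element. The longer motif always holds the shorter one. It was found in 5 of 17 windows, against 6.34% of all 35116 windows and 8.67% of the 10119 windows of genes measured here. The shorter one was found in 11 of 17, against 18.5% and 23.1%. Capitals mark these letters on either strand, and a match is not a site shown to be used in these cells.

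The ALDOC window (chr17:28576896-28577145, minus strand) holds 1 CACGTG and 1 further ACGTG, and the PGK1 window (chrX:78103998-78104247, plus strand) holds 2 ACGTG and 0 CACGTG. The ENO2 window (chr12:6914330-6914579, plus strand) holds 1 ACGTG. LDHA has 2 annotated starts, and the window shown (chr11:18394313-18394562, plus strand) holds 2 CACGTG and 1 further ACGTG, while the other holds 0 of either. The window of SLC2A1 (chr1:42958869-42959118, minus strand) holds 0 of either motif. Of the windows not printed, those of HK2 each hold 2 ACGTG, which in 1 of the 2 windows lie within CACGTG. All 3 ALDOA windows hold ACGTG and 1 holds CACGTG. PFKP has neither motif in 3 of 4 windows and ACGTG in the other, and PFKFB3 has CACGTG in 1 of 2. Whether these motifs bear on the differences between arrays was not tested.
ALDOC: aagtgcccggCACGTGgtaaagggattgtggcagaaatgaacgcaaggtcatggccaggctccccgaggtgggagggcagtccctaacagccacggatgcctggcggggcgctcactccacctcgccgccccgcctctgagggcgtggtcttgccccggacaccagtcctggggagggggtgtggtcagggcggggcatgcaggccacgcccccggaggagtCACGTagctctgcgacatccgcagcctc
PGK1: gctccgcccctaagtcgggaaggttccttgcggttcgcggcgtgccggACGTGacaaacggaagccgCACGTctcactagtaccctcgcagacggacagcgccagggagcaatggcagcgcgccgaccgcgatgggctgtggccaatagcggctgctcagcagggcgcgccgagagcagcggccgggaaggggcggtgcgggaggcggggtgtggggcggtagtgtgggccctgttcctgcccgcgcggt
ENO2: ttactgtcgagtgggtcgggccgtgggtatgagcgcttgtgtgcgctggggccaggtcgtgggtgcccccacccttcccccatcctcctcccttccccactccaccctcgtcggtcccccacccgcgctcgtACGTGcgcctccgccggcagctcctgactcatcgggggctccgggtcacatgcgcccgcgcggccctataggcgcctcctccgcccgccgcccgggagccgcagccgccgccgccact
LDHA: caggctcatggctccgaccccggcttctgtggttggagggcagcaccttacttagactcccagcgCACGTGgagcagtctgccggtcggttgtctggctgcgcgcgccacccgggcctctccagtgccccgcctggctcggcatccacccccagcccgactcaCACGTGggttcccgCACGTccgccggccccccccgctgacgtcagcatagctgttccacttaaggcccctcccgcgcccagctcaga
SLC2A1: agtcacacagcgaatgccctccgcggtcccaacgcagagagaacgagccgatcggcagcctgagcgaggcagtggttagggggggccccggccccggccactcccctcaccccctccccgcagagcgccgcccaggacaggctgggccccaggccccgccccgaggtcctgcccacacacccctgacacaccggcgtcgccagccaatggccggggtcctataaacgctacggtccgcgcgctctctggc

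Isoforms of a step were then compared by their differences between arrays, since levels of different probes cannot be set against each other. As a yardstick, 95% of the 719 genes with 2 probes had probes that differed by less than 0.64 on the log2 scale for the MYC-labelled array against the vector, 0.62 for the PI3K array against the vector and 0.56 for the third comparison. Of 10 isoform pairs, 2, 3 and 1 lay further apart than this. The pairs overlap, since those of the phosphofructokinases and of the enolases share genes. The yardstick covers the gap between probes of the same gene only. How often pairs of unrelated genes lie past it was not counted. Whether isoforms differ more than other gene pairs was thus not tested. On the PI3K array SLC2A3 was 1.69 (log2) further above the vector than SLC2A1, ALDOC was 0.91 further above it than ALDOA, and ENO2 was 0.83 further above it than the ubiquitous enolase ENO1. The ENO2 gap uses a vector signal that was not above background. With ENO2 at its bound of 1.92-fold this pair lies within the yardstick. On the MYC-labelled array the gap of ALDOC over ALDOA was 1.14, and that of PFKP over the muscle-type phosphofructokinase PFKM was -0.68. Between the MYC-labelled array and the PI3K array, of the 10 pairs only SLC2A3 with SLC2A1 was past the yardstick, with a gap of -1.20. The other transporters were not paired, among them SLC2A9, which had 1.26 in this comparison.

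The remaining isoform partners were nearer to each other. HK1, the housekeeping hexokinase, gave 8370.1, 8544 and 10777, with log2 differences of 0.03 and 0.36 from the vector, where HK2 had 0.61 and 0.66. PFKL, the liver-type phosphofructokinase, had 0.01 and 0.42, and PFKM, the muscle type, had 0.58 and 0.67. PFKFB4, a second maker of the activator, had -0.20 and 0.15, close to PFKFB3. LDHB, the heart-type lactate dehydrogenase subunit, gave 9435, 14530 and 15841 and was 1.54-fold higher on the MYC-labelled array and 1.68-fold higher on the PI3K array, so both subunits were higher on both arrays. ENO1 had 0.15 and 0.42, and ENO3, the muscle enolase, had 0.54 and 0.27. The ENO3 signals of 304.5, 442 and 367 were near background, and its other probe, not above background on any array, had 0.48 and 0.42.

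Among the other transporters above background, SLC2A6, a lysosomal member of the family, gave 883, 1325 and 1471, with log2 differences of 0.59 and 0.74 from the vector. SLC2A9, a urate transporter, gave 366, 872 and 364 by its brightest probe, which is 2.38-fold higher on the MYC-labelled array and level between the vector and PI3K arrays. SLC2A8 had log2 differences of 0.32 and -0.05. Over the 5 transporters measured of 13 on the array, 2 were at least 1.5-fold higher on each oncogene array, against 10.8% of all genes on the MYC-labelled array and 8.54% on the PI3K array. These were SLC2A6 and SLC2A9 on the MYC-labelled array, and SLC2A3 and SLC2A6 on the PI3K array. SLC2A6 lay at the mark on the MYC-labelled array and fell short of it after centring, which leaves 1 of 5.

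**Figure D3:**
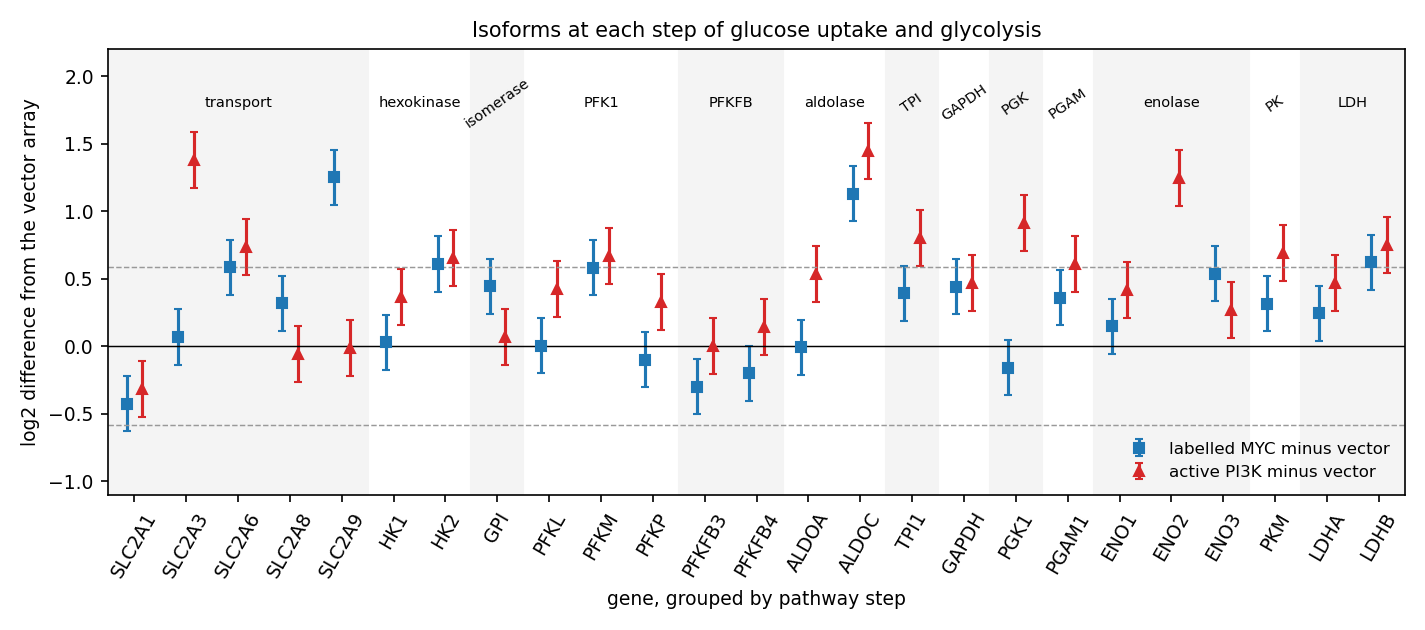
Log2 difference from the vector array for every transporter and glycolytic enzyme above background, grouped by pathway step, on the MYC-labelled array (squares) and the PI3K array (triangles). Bars are the technical SD of a single probe and dashed lines mark 1.5-fold. Triangles lie at or above 0 at every enzyme (PFKFB3 and GPI turn to -0.08 and -0.01 after centring). SLC2A3 and ALDOC stand apart from their isoforms on the PI3K array, and ENO2 does so only from a vector signal not above background.

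The enzymes outside the 10 genes came from a textbook list of 24 genes, of which 12 were above background. All 12 read higher on the PI3K array than on the vector array (11 of 12 after centring, when GPI turned to -0.01), where 55.1% of all genes did, and 5 of 12 were at least 1.5-fold higher (8.54% of all genes). These were TPI1, which interconverts the aldolase products, at 1.75-fold, LDHB at 1.68-fold, the pyruvate kinase PKM at 1.61-fold, PFKM at 1.59-fold and the mutase PGAM1 at 1.53-fold. PGAM1 fell short of 1.5-fold after centring, at 0.53 on the log2 scale. GAPDH, the dehydrogenase often used as a reference gene, gave 19143, 25991 and 26496 by its brightest probe, with log2 differences of 0.44 and 0.47. Its other probe had 0.55 and 0.64, which is 1.56-fold higher on the PI3K array, so passing 1.5-fold depended on the probe. GPI, which isomerises glucose phosphate, differed in pattern, with 0.44 on the MYC-labelled array and 0.07 on the PI3K array. The median of the 12 enzymes was 0.45 on the PI3K array and 0.38 on the MYC-labelled array, where 11 of 12 were above 0 (9 of 12 after centring, when HK1 and PFKL turned; 56.4% of all genes) and 1, LDHB, was at least 1.5-fold higher (0 after centring), against 10.8% of all genes.

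PKM had 3 detected probes, each annotated to a different transcript. Against the vector they gave log2 differences of 0.32, 0.44 and 0.54 on the MYC-labelled array, and 0.69, 1.12 and 1.26 on the PI3K array, from the brightest probe to the dimmest. All 3 were higher on the PI3K array, by 1.61-fold at the least. Whether they differ by transcript or by probe was not tested.

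Genes around the pathway did not share one direction. Of the genes that direct pyruvate, PDK4, a kinase that switches off pyruvate dehydrogenase, was at least 1.64-fold lower on both oncogene arrays, while its relative PDK3 was at least 1.61-fold higher on the PI3K array. MPC2, a subunit of the mitochondrial pyruvate carrier, gave 3189, 2024 and 1848 and was 1.58-fold and 1.73-fold lower, and its partner MPC1 had log2 differences of -0.01 and 0.09. The list of lactate and pyruvate handling had a median of -0.01 on the MYC-labelled array (7 genes) and 0.02 on the PI3K array (8 genes).

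The pentose phosphate pathway, which branches off to make NADPH and ribose, had 6 genes measured. On the MYC-labelled array 3 of 6 were at least 1.5-fold higher: the lactonase PGLS (1.83-fold), the dehydrogenase PGD (1.73-fold) and the isomerase RPIA (1.62-fold), against 10.8% of all genes. On the PI3K array 0 of 6 were at least 1.5-fold higher, against 8.54% of all genes, with PGLS at -0.19, PGD at 0.57 and RPIA at 0.36. Between the oncogene arrays the log2 difference of PGLS, MYC-labelled minus PI3K, was 1.07.

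For glucose production and glycogen the PI3K array gave 9 of 10 genes below the vector array, where 44.9% of all genes lay. Of these 9, TIGAR was at -0.03, and PC, also at -0.03, was not above background on the PI3K array, so its direction is not settled. PCK2, a mitochondrial enzyme that makes phosphoenolpyruvate, gave 4729, 6345 and 2579, and was 1.83-fold lower on the PI3K array. Its second probe had -0.10, so the size depended on the probe. The third had -0.59 but was not above background on the PI3K array, so its size is not settled. The exception was the glycogen synthase GYS1, 1.51-fold higher, though short of 1.5-fold after centring. On the MYC-labelled array 5 of the 10 genes were above 0 and 5 below.

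Genes of the hypoxia response were listed because several of the 10 genes are known HIF1A targets. HIF1A itself had log2 differences of -0.03 on the MYC-labelled array and 0.56 on the PI3K array by its brightest probe, and 0.08 and 0.36 by its other. Of 15 hypoxia targets outside glycolysis measured on the PI3K array, 4 were at least 1.5-fold higher, against 8.54% of all genes: the mitophagy receptor BNIP3 (2.23-fold), NDRG1 (1.94-fold), the prolyl hydroxylase subunit P4HA1 (1.77-fold) and the oxidoreductase ERO1A (1.52-fold, short of 1.5-fold after centring). Lower by this measure, against 9.80% of all genes, were P4HA2 (1.72-fold) and the carbonic anhydrase CA12 (at least 2.60-fold). Their median was 0.11. VEGFA, the vessel growth factor, had -0.19 and ADM, a vasodilator peptide, 0.18 on the PI3K array. Of 16 such targets measured on the MYC-labelled array, 3 counted as at least 1.5-fold higher (10.8% of all genes) and 2 lower (10.5%), with a median of 0.11. Lower were ADM (4.52-fold) and PLOD2, a collagen-modifying enzyme (2.41-fold). Higher were NDRG1 (1.77-fold), P4HA1 (1.57-fold, short of 1.5-fold after centring) and MXI1 (at least 1.26-fold, from a vector signal not above background). The regulator VHL, which marks the hypoxia factors for destruction, was 1.61-fold higher on that array by its brightest probe. By its next brightest probe VHL was 1.47-fold higher, so passing 1.5-fold depended on the probe. EPAS1, a second hypoxia factor, was 1.73-fold lower on the MYC-labelled array.

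Glucose-sensing regulators were few, with 3 of 5 measured. ARRDC4, an arrestin that limits glucose uptake, was 1.57-fold higher on the PI3K array, short of 1.5-fold after centring. Its relative TXNIP had log2 differences of 0.57 on the MYC-labelled array and 0.42 on the PI3K array.

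**Figure D4:**
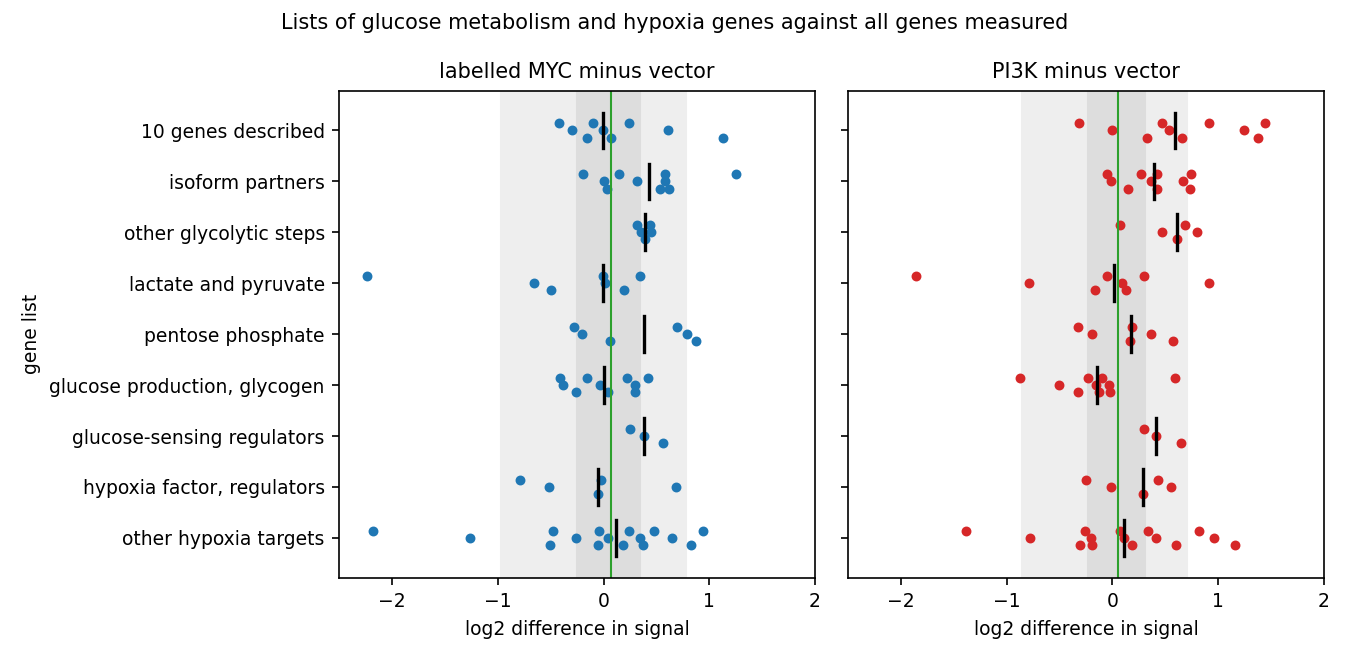
Log2 difference from the vector array for each gene (points) of the listed pathways, with the list median as a black bar, on the MYC-labelled array (left) and the PI3K array (right). Grey bands span the middle 90% and 50% of all genes compared, and the green line is their median (0.07 and 0.05). On the PI3K array the medians of the 10 genes (0.60), other glycolytic steps (0.61), isoform partners (0.39) and glucose-sensing regulators (0.42) lie right of the inner band. That of glucose production and glycogen (-0.14) lies left of the line. On the MYC-labelled array isoform partners (0.43), other glycolytic steps (0.39), pentose phosphate (0.38) and glucose-sensing regulators (0.39) lie right of the inner band, and the 10 genes (-0.01) do not.

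Among the 10 genes ALDOC had the widest range over the arrays, 1.45 on the log2 scale. The 3 genes nearest to it of the other 6906 above background on all arrays, by Euclidean distance in the pair of differences from the vector, were LRP8 (distance 0.03), SQLE (0.06) and IDI1 (0.15). LRP8 is a receptor of the LDL receptor family, and SQLE and IDI1 are enzymes of cholesterol synthesis. Their differences were 1.10, 1.08 and 0.98 on the MYC-labelled array and 1.44, 1.40 and 1.48 on the PI3K array. With 3 arrays the likeness rests on 2 numbers a gene.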

How the data were processed

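Per the labels' protocols, Trizol-extracted, DNase I-treated total RNA was turned into biotinylated cRNA for Illumina arrays. The submitters' processing notes name GenomeStudio, and no version is given in the sources used here. The authors deposited a scanner table of signal intensity without normalisation, per the file headers, used here for the vector and MYC-labelled arrays. Next to each intensity they deposited a detection value headed as a p-value. It rises with the signal (rank correlation 0.976 and 0.981), so it was read as 1 minus the p-value. The table's 2 further columns of per-sample values name no sample of the series and were not used. A second deposited table holds log2 values for all 3 arrays. Its MYC minus vector difference exceeds that of the scanner signals by 0.52 at every probe, the amount by which the 75th percentiles (563.5 and 393.8) differ on the log2 scale. The 2 columns thus differ as signals scaled to that percentile do, with signals not corrected for background, which compresses differences of dim probes. Dim probes also tended to read higher on both oncogene arrays. With no detection filter the median log2 difference of all genes was 0.23 (MYC-labelled) and 0.20 (PI3K), against 0.07 and 0.05 with it. Small positive differences near background may thus be overstated. A per-probe centring remains in the values and its origin is unknown. The PI3K column was not checked in this way, since no scanner column names that sample, and was assumed to be alike. Column medians were -0.16 (vector), 0.07 (MYC) and 0.04 (PI3K).

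Log2 differences are those of the deposited table. Signals of the other arrays were rebuilt as the vector signal times 2 to the power of the difference. The brightest probe stood for a gene, if above background on any array (8270 genes), and a comparison covers genes above background on 1 or both arrays. A gene above background on 1 of 2 arrays has a lower bound as its fold: the bright signal divided by the dim array's lowest detected signal, or by the dim probe's own where that is higher. Symbols were matched by gene ID to RefSeq (21813 of 21834 named probes; 2692 probes are unnamed here and 0 have several genes). No build is named for the array, so no gene coordinates are given. Some genes of the lists are not reported here. The members and lists were chosen with earlier results of these data known. By the rule for named genes, the text gives every probe of the 10 genes. Of the other lists it may name genes at least 1.5-fold apart, detected isoforms and detected glycolytic enzymes, and not all of them are named. Others named were chosen after their values were seen. The alternative normalisation used limma 3.58.1 in R 4.3.3. The steps were checked on simulated arrays. The number of arrays, 1 a group, limits the precision.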

Additional observations from a re-analysis of the deposited data

How the results depend on the processing

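Each result was recomputed with normexp background correction (offset 50) and quantile normalisation, with centring on the median, with 50 added to each signal, with a gene's probes averaged, at a detection p-value under 0.05 and with no detection filter. No paired analysis was possible because each group has 1 array. Of the 10 genes in 3 comparisons, 29 differences could be computed, and under each of the 6 alternatives all 29 moved by less than the technical SD of a single probe. Part of this was fixed in advance. The detection settings cannot move these values, averaging can move only ALDOA, and centring shifts every gene of a comparison by the same amount. Only the normexp setting and the added 50 could move each gene by its own amount. Signs turned for values near 0 only: SLC2A3 on the MYC-labelled array ranged from -0.03 to 0.07 and PFKFB3 on the PI3K array from -0.08 to 0.02. SLC2A3 on the PI3K array ranged from 1.28 to 1.39, ALDOC from 1.37 to 1.47, PGK1 from 0.83 to 0.93 and ENO2 from 1.06 to 1.25. Comparing the MYC-labelled array with the vector, the genes at least 1.5-fold higher fell from 2 to 1 with centring and to 1 with the added 50, and those among the isoform partners and other glycolytic steps fell from 3 to 1 with centring. All genes at least 1.5-fold higher went from 879 to 1413 with no detection filter, which tests more genes (16922 against 8147). Comparing the PI3K array with the vector, those of the 10 genes at least 1.5-fold higher fell from 5 to 4 with centring. Those among the isoform partners and other glycolytic steps fell from 6 to 5. Differences between cultures cannot be seen with 1 array a group, and detection on the PI3K array rests on a substitute.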
